A study of Mus musculus with 6 samples.

Results

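The genes described here are 10 nuclear genes for factors that control mitochondrial biogenesis and the expression of mitochondrial DNA (mtDNA). They are the coactivators Ppargc1a, Ppargc1b and Pprc1, the transcription factors Nrf1, Gabpa and Esrra, the mtDNA transcription factors Tfam and Tfb2m, the mitochondrial RNA polymerase Polrmt and the catalytic subunit of the mtDNA polymerase, Polg. They were taken by gene name from a table of 55401 genes, and 10 of 10 were found. RNA sequencing was done on bEnd.3 cells, an immortalised mouse brain endothelial line of WT genotype, grown in high-glucose DMEM with fetal bovine serum. In the group called mitochondria, 3 libraries came from cells given mitochondria isolated from MLO-Y4 cells, a mouse osteocyte-like line, in 100 ul of medium, and collected after 24 h. In the group called control, 3 libraries came from the same line given the same volume of medium without mitochondria. The labels do not say that replicates came from separate cultures, and the p-values therefore cover the variation among these libraries alone, part or all of which can be technical.

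The nuclear program for mitochondria is layered. PGC-1 family coactivators do not bind DNA themselves but are recruited by nuclear respiratory factors and by the estrogen-related receptors, which in turn activate genes for respiratory chain subunits and for the mtDNA machinery. Inside the organelle the core machinery transcribes and copies the circular genome with its own dedicated polymerases, and TFAM both starts transcription and packs mtDNA into nucleoids.

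The recognition letters of these regulators were searched on both strands of RefSeq promoter windows (build GRCm38.p6), which run from 250 bases before to 50 bases after a gene's start. Of the 10 genes 9 had at least 1 window (Nrf1 had 2), and Ppargc1b had none. The stretches below are shown because the factors described here are themselves DNA-binding regulators or their known targets. Each is written 5′ to 3′ on the gene's own strand, and the capitals mark the matches named here. Sp1 matches within the stretches of Polg and Tfb2m are left in lower case. The RefSeq starts can differ from the gene bounds given below, and the stretches of Tfam, Polg and Gabpa lie inside those bounds. In Tfam (chr10:71238045-71238124, minus strand), Polg (chr7:79466274-79466353, minus strand), Polrmt and Gabpa, the capitals CCGGAAG or its reverse complement CTTCCGG mark the ETS letters bound by the GABP complex, whose DNA-binding subunit is the product of Gabpa. In Polrmt (chr10:79746562-79746641, minus strand) the second capital run holds a pair of overlapping matches to the full palindromic NRF1 motif, on the opposite strand. In Gabpa (chr16:84835014-84835123, plus strand), Esrra (chr19:6921809-6921878, minus strand) and Tfb2m (chr1:179546252-179546326, minus strand) the capitals GCATGCG are the core of the NRF1 motif, and CGCATGCG holds that core on both strands, 1 base apart. In Ppargc1a (chr5:51567726-51567805, minus strand) the capitals are TGACG, the core of the cAMP response element, read on the opposite strand as CGTCA.
Tfam: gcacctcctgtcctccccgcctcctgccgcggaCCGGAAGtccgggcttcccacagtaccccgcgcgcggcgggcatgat
Polg: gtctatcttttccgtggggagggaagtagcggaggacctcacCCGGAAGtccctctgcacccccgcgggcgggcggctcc
Polrmt: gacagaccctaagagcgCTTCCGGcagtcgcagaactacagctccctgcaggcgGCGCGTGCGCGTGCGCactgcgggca
Gabpa: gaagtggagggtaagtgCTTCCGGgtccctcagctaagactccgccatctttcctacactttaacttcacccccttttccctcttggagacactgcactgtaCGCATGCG
Esrra: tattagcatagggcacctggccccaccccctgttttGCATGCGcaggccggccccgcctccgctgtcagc
Tfb2m: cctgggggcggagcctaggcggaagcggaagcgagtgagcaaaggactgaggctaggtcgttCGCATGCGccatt
Ppargc1a: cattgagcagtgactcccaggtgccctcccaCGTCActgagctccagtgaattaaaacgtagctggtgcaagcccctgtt

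The ETS letters CCGGAAG were in 4 of the 9 genes with a window (Gabpa, Tfam, Polrmt and Polg), against 8.86% of all 32851 windows. The NRF1 core GCATGCG, a search chosen after the sequences were seen, was in 4 (Gabpa, Esrra, Tfb2m and Polrmt), against 3.58%, and the full NRF1 motif was in Polrmt, against 4.603%. Since the core was chosen from these windows, its count beside 3.58% is not a test. Sp1 letters GGGCGG were in 5 genes (Nrf1, Esrra, Tfam, Tfb2m and Polg), against 35.7%, and TGACG was in Ppargc1a and Polg, against 20.8%. The letters AAGGTCA of the estrogen-related receptors were in 0 of the 9 genes, against 4.72%, and Pprc1 had no match to any motif searched. The windows of these genes had a GC content of 48.7% to 70.3%, beside a median of 52.7% over all windows. Its part in the matches was not tested. A match describes the letters in this window and not binding.

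Estimated counts summed to 65394770 to 73376834 a library, spread over 22452 to 22875 genes with any count. Of 12 endothelial marker genes fixed for a check of the cell type, 3 passed the filter on low values (Tie1, Flt1 and Eng), 8 had an FPKM (a level in fragments scaled to transcript length and sequencing depth) under 1 in every library, among them Pecam1 and Cdh5, and Cldn5 had a count of 0 in all 6. Few markers of the labelled cell type thus passed the filter. The 12 markers together summed to 747 to 798 CPM (counts scaled to library size) in control and 810 to 874 CPM in mitochondria libraries. The 3 tested markers did not overlap between groups in CPM, against 21.4% of all tested genes. Their log2 fold change was 0.34 for Tie1, 0.34 for Flt1 and -0.24 for Eng. Of these edgeR called 0, with all 3 at an unadjusted p under 0.05, against 13% of all tested genes. DESeq2 called Tie1 (adjusted p = 0.0332), against 2.79% of all tested genes. Of the 8 osteocyte markers, the donor line's type, 6 were under 1 FPKM in every library, with Dmp1 and Mepe at a count of 0 in all 6. The other 2, Fgf23 and Col1a1, passed the filter, and edgeR called 0 of them. Their log2 fold changes ran from -0.03 to 0.11. The 8 markers summed to 129 to 224 CPM in control and 140 to 187 CPM in mitochondria libraries. The summed level of 23 pancreatic acinar markers was 161 to 271 CPM in control and 56.2 to 61.9 CPM in mitochondria libraries. Of the 16 tested acinar markers 15 had a log2 fold change below 0, with a median of -11.6 and a highest value of 0.09. By edgeR 10 of them were called lower, out of 13 genes called lower among all tested genes. The summed level of 13 hepatocyte markers was 49.7 to 64.2 CPM in control and 4.57, 47.5 and 40.1 CPM in mitochondria replicates 1 to 3. The part of these markers in the results below was not tested. Leaving the acinar and hepatocyte genes out of the fit changed no call among the 10 factors. That fit cannot test their part, since it leaves the counts of the factors as they were.

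All 10 factors were expressed above the filter, set at 1 FPKM averaged over the 6 libraries, and none was called different in cells given mitochondria. The highest fold changes were those of Esrra and Pprc1, followed by Tfam and Ppargc1b, and the lowest those of Gabpa and Ppargc1a. Fitted folds of Nrf1, Tfb2m and Polg were 1.02, 0.989 and 0.969. By edgeR's quasi-likelihood test 0 of 10 were called at an adjusted p under 0.05, against 0.164% of 12774 tested genes (21 genes, of which 8 or 0.0626% were higher and 13 or 0.102% lower). At an unadjusted p under 0.05 there was 1 of 10, Gabpa, against 13% of all tested genes. DESeq2 also called 0 of 10, against 2.79% of tested genes. It gave an unadjusted p under 0.05 for 2 of 10, Gabpa and Esrra, against 14.1% of tested genes. The log2 fold change was above 0 for 6 factors, against 49.6% of all tested genes, and below 0 for 4, with a median of 0.06 and a range of -0.17 to 0.41, beside a median of 0.00 over all tested genes. In 3 of the 10 the libraries of the groups did not overlap in CPM, 2 higher (Esrra and Tfam) and 1 lower (Gabpa), where 21.4% of all tested genes did not overlap, 10.8% higher and 10.6% lower. In RNA from whole cultures, fewer cells that express a gene and less of its RNA in each cell cannot be told apart.

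**Figure D1:**
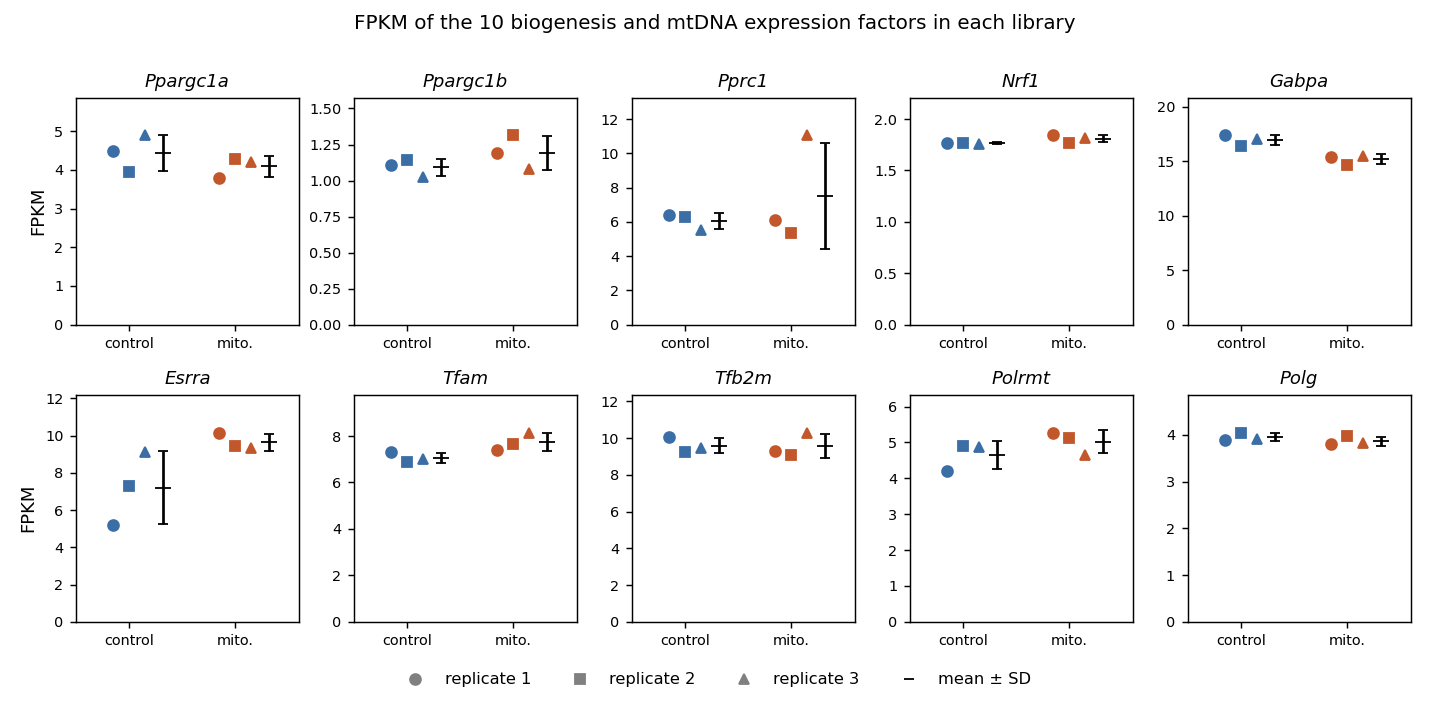
FPKM of each factor in the 6 libraries (y axis from 0, a scale of its own per gene), with the replicate given by the symbol and the mean and SD (n = 3) as black bars; control is blue and mitochondria (mito.) orange. Groups do not overlap for Gabpa, Esrra and Tfam, and by FPKM but not CPM also for Nrf1, and mitochondria replicate 3 stands far above the other libraries for Pprc1.

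Among the coactivators, Ppargc1a (ENSMUSG00000029167, chr5:51454250-51567704, minus strand, GRCm38) encodes PGC-1α, the inducible coactivator known for raising mitochondrial content in brown fat and muscle. Its FPKM was 4.48, 3.94 and 4.89 in control replicates 1 to 3 and 3.79, 4.28 and 4.20 in mitochondria replicates 1 to 3. The groups overlapped, with control replicate 3 the highest and mitochondria replicate 1 the lowest library. The mean was 4.44 ± 0.478 in control and 4.09 ± 0.266 with mitochondria (SD, n = 3). The fitted fold was 0.914 with a 95% interval of 0.776 to 1.08 (edgeR adjusted p = 0.612). Its log2 fold change of -0.13 was -0.06 with the GC correction described below, and -0.21 (without control replicate 2) to -0.06 (without control replicate 3) with 1 library left out.

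Ppargc1b (ENSMUSG00000033871, chr18:61298136-61400431, minus strand), which encodes PGC-1β, had the lowest level of the 10. Its FPKM was 1.11, 1.14 and 1.03 in control and 1.19, 1.31 and 1.08 in mitochondria libraries. Mitochondria replicates 1 and 2 were the highest libraries, while mitochondria replicate 3 lay below control replicates 1 and 2. The fold was 1.08 (95% interval 0.863 to 1.36; edgeR adjusted p = 0.76). Its log2 fold change of 0.12 was 0.06 with the GC correction and 0.04 without mitochondria replicate 2. It rested on 301 to 408 estimated counts a library, the fewest of the 10. If 4 counts stand for a fragment, which the counts hint at but do not settle, counting error in the lowest library would be about 11.5%.

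Pprc1 (ENSMUSG00000055491, chr19:46044886-46072911, plus strand) encodes PRC, the family member known for its link to growth signals. Its FPKM was 6.37, 6.26 and 5.51 in control and 6.13, 5.35 and 11.05 in mitochondria libraries. A single library, mitochondria replicate 3, was 1.71-fold above the next highest, while the other mitochondria libraries lay within or below the control range. The fold was 1.23 (95% interval 0.786 to 1.92; edgeR adjusted p = 0.671), and without mitochondria replicate 3 the log2 fold change was -0.08 in place of 0.30. Its SD of log2 level among mitochondria libraries was higher than that of 93.9% of tested genes. In mitochondria replicate 3, 127 tested genes were more than 1.5-fold above every other library, against 22 to 69 such genes in each of the other libraries, and Pprc1 ranked 64 among them. The start of Pprc1 overlaps the antisense gene Ldb1 (46044886 to 46045214), whose FPKM was 33.8 to 37.0 in control and 34.7 to 36.6 in mitochondria libraries.

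The 3 coactivator genes share functions, so their FPKM was also set against the family's sum. Pprc1 made up 48.2% to 55.2% of that sum in control libraries, Ppargc1a 34.7% to 42.8% and Ppargc1b 8.97% to 10.1%. In mitochondria libraries Pprc1 made up 55.2%, 48.9% and 67.7%. Ppargc1a made up 34.1%, 39.1% and 25.7%, and Ppargc1b 10.7%, 12.0% and 6.59%. The order was the same in all 6 libraries, and the departure in mitochondria replicate 3 is that of Pprc1.

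Nrf1 (ENSMUSG00000058440, chr6:30047988-30153458, plus strand) encodes nuclear respiratory factor 1, a direct activator of many respiratory chain genes. Its FPKM was 1.77, 1.77 and 1.75 in control and 1.84, 1.77 and 1.81 in mitochondria libraries. These are among the tightest values in the data, since 0.924% of tested genes had a smaller SD of log2 level in control and 7.37% in mitochondria libraries. By FPKM every mitochondria library was above the control libraries, replicate 2 by very little, while in CPM after TMM scaling replicate 2, at 20.6, lay within the control range of 20.5 to 20.8. The fold was 1.02 (95% interval 0.916 to 1.13; edgeR adjusted p = 0.904).

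Gabpa (ENSMUSG00000008976, chr16:84834925-84863779, plus strand), the DNA-binding subunit of GABP, was the most abundant of the 10. Its FPKM was 17.4, 16.4 and 17.1 in control and 15.4, 14.6 and 15.5 in mitochondria libraries. Every mitochondria library was below every control library. The mean was 17.0 ± 0.471 in control and 15.2 ± 0.467 with mitochondria (SD, n = 3). The fold was 0.887 with a 95% interval of 0.823 to 0.957, and the adjusted p was 0.258 by edgeR and 0.0619 by DESeq2. It therefore missed the threshold in both.

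Fold changes moved with the GC content of transcripts, and the part of this in the Gabpa difference was not tested beyond a correction. Across tested genes the median log2 fold change went from -0.09 in the decile with the lowest GC content to 0.06 in the decile with the highest, and 73.6% and 35.0% of genes in these deciles were lower with mitochondria. The Gabpa transcript has a GC content of 41.4%, which puts it in the lowest decile, where 27.3% of genes had a log2 fold change below that of Gabpa. With a correction for the trend, chosen after seeing the data, its log2 fold change was -0.11 in place of -0.17 and its edgeR adjusted p was 0.437. Its start also overlaps the antisense gene Atp5j (84834925 to 84835625), whose FPKM was 28.7 to 60.6 in control and 37.1 to 57.4 in mitochondria libraries. Since the strand setting of the counting is not known, reads of the overlap cannot be assigned with certainty.

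GABP works as a tetramer with a β subunit. Its β subunit genes did not pass the threshold either, with a fold of 0.923 for Gabpb1 (95% interval 0.806 to 1.06; edgeR adjusted p = 0.586) and of 1.01 for Gabpb2 (0.933 to 1.10; adjusted p = 0.913). The FPKM ratio of Gabpa to Gabpb1 was 4.42 to 4.87 in control and 4.20 to 5.01 in mitochondria libraries.

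Esrra (ENSMUSG00000024955, chr19:6910977-6921840, minus strand) encodes ERRα, an orphan nuclear receptor that acts with PGC-1 coactivators on genes of oxidative metabolism. Its FPKM was 5.18, 7.31 and 9.10 in control and 10.2, 9.41 and 9.33 in mitochondria libraries. Every mitochondria library was above every control library, but control replicate 3 came close to mitochondria replicate 3. The mean was 7.19 ± 1.96 in control and 9.63 ± 0.453 with mitochondria (SD, n = 3), and 89.7% of tested genes varied less among control libraries. The fold was 1.33 with a 95% interval of 0.964 to 1.83 (edgeR adjusted p = 0.431). DESeq2 gave an adjusted p of 0.308.

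The size of the Esrra difference depended on which control library was compared. Without control replicate 1 the log2 fold change was 0.22 in place of 0.41, and without control replicate 3 it was 0.61 (edgeR adjusted p = 0.376). Its transcript has a GC content of 50.3%, and with the GC correction the value was 0.39. The gene's end overlaps 73 bases of the antisense gene Trmt112.

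**Figure D2:**
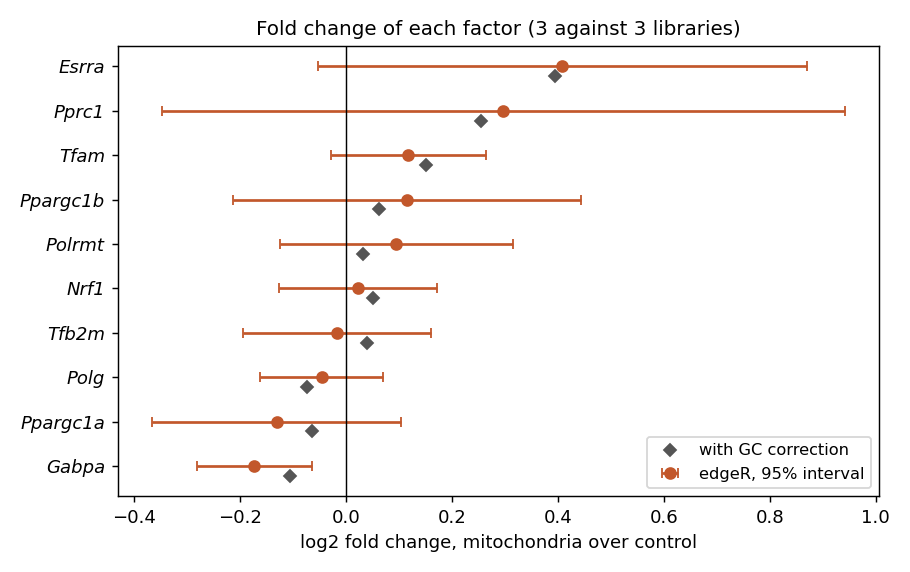
Log2 fold change of mitochondria over control for each factor (x axis) from edgeR with its 95% interval (orange), and the value after the GC correction (grey diamonds), from 3 against 3 libraries. The interval of Gabpa lies below 0, those of the other 9 factors include 0, and those of Pprc1 and Esrra are the widest.

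Tfam (ENSMUSG00000003923, chr10:71225464-71238280, minus strand) encodes the protein that packs mtDNA and starts its transcription. Its FPKM was 7.31, 6.87 and 6.99 in control and 7.39, 7.66 and 8.15 in mitochondria libraries. Every mitochondria library was above every control library, though mitochondria replicate 1 exceeded control replicate 1 by little. The mean was 7.06 ± 0.225 in control and 7.73 ± 0.384 with mitochondria (SD, n = 3). The fold was 1.09 with a 95% interval of 0.98 to 1.2 (edgeR adjusted p = 0.463). Its transcript has a GC content of 44.9%, in a decile of genes whose median log2 fold change was -0.03 and of which 83.8% had a lower value than Tfam. With the GC correction its log2 fold change was 0.15 in place of 0.12 (edgeR adjusted p = 0.445).

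The genes whose log2 CPM followed Tfam most closely over the 6 libraries were Camk1d (r = 0.982), Wdr91 (r = 0.979) and Dnm2 (r = 0.978), and 132 tested genes had a Pearson r over 0.9. With 6 points that share library depth and composition, this describes a likeness only.

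Tfb2m (ENSMUSG00000026492, chr1:179528055-179546267, minus strand) encodes the factor that opens the mtDNA promoter with the polymerase. Its FPKM was 10.1, 9.24 and 9.47 in control and 9.32, 9.10 and 10.3 in mitochondria libraries. The lowest and the highest library were both in the mitochondria group. The fold was 0.989 (95% interval 0.875 to 1.12; edgeR adjusted p = 0.944), and its sign turned in 5 of the other fits. Its paralog Tfb1m, which encodes an rRNA methyltransferase of the mitochondrial ribosome, had a fold of 1.07 (0.896 to 1.28; adjusted p = 0.738), and the FPKM ratio of Tfb2m to Tfb1m was 4.58 ± 0.541 in control and 4.20 ± 0.260 with mitochondria (SD, n = 3).

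Polrmt (ENSMUSG00000020329, chr10:79736123-79746581, minus strand), the mitochondrial RNA polymerase, had an FPKM of 4.20, 4.90 and 4.87 in control and 5.27, 5.12 and 4.66 in mitochondria libraries. Control replicate 1 was the lowest library and mitochondria replicate 3 lay below control replicates 2 and 3, so the groups overlapped. The fold was 1.07 (95% interval 0.917 to 1.24; edgeR adjusted p = 0.695). Its transcript, with a GC content of 60.5%, is in the highest decile, and its log2 fold change of 0.10 was 0.03 with the GC correction and also without control replicate 1. The elongation factor gene Tefm had a fold of 0.949 (0.706 to 1.28; adjusted p = 0.888).

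Polg (ENSMUSG00000039176, chr7:79446231-79466362, minus strand), the catalytic subunit of the mtDNA polymerase, had an FPKM of 3.90, 4.05 and 3.91 in control and 3.79, 3.97 and 3.83 in mitochondria libraries. Mitochondria replicates 1 and 3 were the lowest libraries, and mitochondria replicate 2 lay within the control range. The fold was 0.969 (95% interval 0.894 to 1.05; edgeR adjusted p = 0.729). Its gene overlaps the antisense gene Fanci (79446231 to 79450264), whose FPKM was 5.86 to 6.30 in control and 5.74 to 6.31 in mitochondria libraries.

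The partners of Polg at the replication fork were not called. Twnk, the mtDNA helicase, had a fold of 1.07 (95% interval 0.931 to 1.23; edgeR adjusted p = 0.654), and Ssbp1, the single-strand binding protein, 0.928 (0.808 to 1.07; adjusted p = 0.624). The accessory subunit gene Polg2 stayed under the filter with an FPKM of 1.03, 0.767 and 0.793 in control and 0.695, 0.942 and 0.952 in mitochondria libraries, so it was not tested.

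By FPKM, which is scaled per length, the order of the 10 in control libraries was Gabpa, Tfb2m, Esrra, Tfam, Pprc1, Polrmt, Ppargc1a, Polg, Nrf1 and Ppargc1b. Ranges of neighbours overlapped for Esrra and Tfam, for Polrmt and Ppargc1a, and for Ppargc1a and Polg. In mitochondria libraries Esrra came before Tfb2m, with overlapping ranges, and the other genes kept their order, with overlap for Tfam and Pprc1 and for Ppargc1a and Polg. Gabpa was above 74.0% of tested genes in mean FPKM, while Nrf1 was above 11.9% and Ppargc1b above 2.76%.

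**Figure D3:**
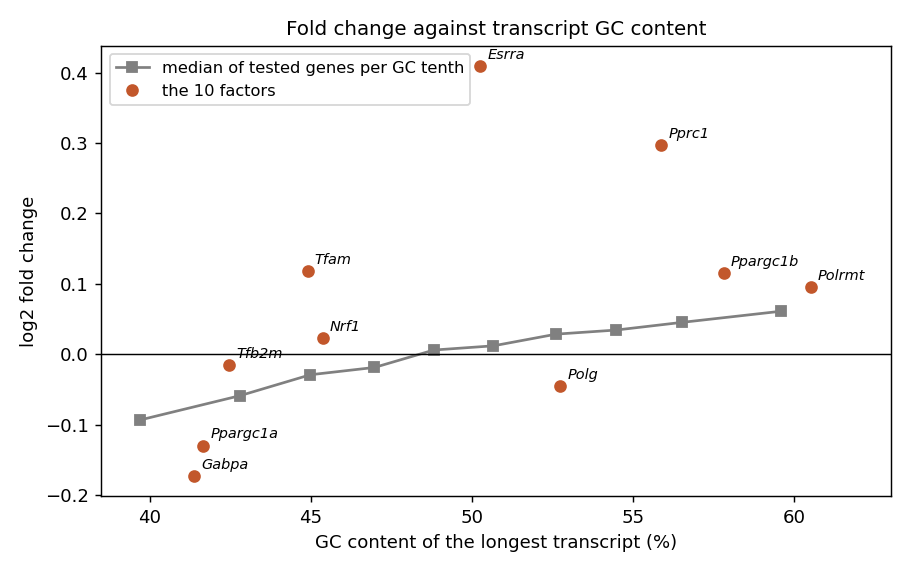
Log2 fold change of mitochondria over control (y axis) against the GC content of each gene's longest transcript (x axis, %), with the 10 factors in orange and the median of tested genes in each GC decile in grey. The median went from -0.09 in the lowest decile to 0.06 in the highest, and 7 of the 10 factors lie above the median of their decile, while Gabpa, Ppargc1a and Polg lie below it.

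The trend with GC content separated the groups library by library. Spearman's rho across tested genes between GC content and a library's deviation from the mean of all libraries was -0.235, -0.0598 and -0.171 in control replicates 1 to 3 and 0.134, 0.172 and 0.127 in mitochondria replicates 1 to 3. Genes are not independent replicates, so this is a description of the libraries. GC content thus moved with the groups, and its part in the results was not tested beyond the correction. With the correction the direction of 9 of the 10 factors was the same as without it, the exception being Tfb2m.

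Other parts of the program were examined as lists chosen by function. Of 24 tested regulators of biogenesis other than the 10 factors, 12 had a log2 fold change above 0 and 12 below, with a median of 0.00, and 0 were called by edgeR. The smallest adjusted p was 0.466, for Foxo3, a stress-responsive forkhead factor, with an FPKM of 13.2 ± 0.722 in control and 14.9 ± 1.54 with mitochondria (SD, n = 3), followed by Hcfc1 and Kat2a. The 4 regulators under the filter were Esrrb, Esrrg, Ppara and Mef2c. Of 11 genes of mtDNA transcription, 3 of them among the 10 factors, 6 were above 0 and 5 below, with a median of 0.00 and 0 called. Besides Tfam, the smallest p-values were those of Mrpl12 (fold 0.943) and Mterf2 (fold 0.888).

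Of 12 tested genes of mtDNA replication and repair, 5 were above 0 and 7 below, and 0 were called, the median log2 fold change being -0.02. The lowest fold, 0.627, was that of the flap endonuclease gene Fen1 (95% interval 0.363 to 1.09; edgeR adjusted p = 0.446). Its FPKM was 51.0, 50.4 and 54.2 in control and 51.5, 20.04 and 26.9 in mitochondria libraries, so that mitochondria replicate 1 was at the control level. Fen1 overlaps Tmem258, which leaves the assignment of its reads uncertain. Top1mt, the mitochondrial topoisomerase, had a fold of 0.921 (adjusted p = 0.572).

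All 13 tested genes of the nucleotide supply for mtDNA had a log2 fold change below 0, against 6437 of 12774 tested genes. The genes of a list share the same libraries and are not independent replicates. The median of this list was -0.16. By edgeR 0 were called, with 2 at an unadjusted p under 0.05, close to the 13% of all tested genes. With 1 library left out 11 or 12 were below 0, and the median was as near to 0 as -0.09, without control replicate 3. The lowest was Tk2, the mitochondrial thymidine kinase, with an FPKM of 3.21, 3.55 and 3.98 in control and 2.59, 2.67 and 2.21 in mitochondria libraries, which do not overlap. Its fold was 0.692 (95% interval 0.565 to 0.847), and its adjusted p was 0.243 by edgeR and 0.0146 by DESeq2. Slc25a36, a pyrimidine nucleotide carrier, had a fold of 0.882, and Rrm2b, the ribonucleotide reductase subunit of resting cells, 0.875. With the GC correction 11 of the 13 stayed below 0, with a median of -0.10.

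Genes of mitochondrial RNA processing and stability were below 0 in 18 of 21 cases (median -0.11 on the log2 scale), against 6437 of 12774 tested genes. By edgeR 0 were called, with 3 at an unadjusted p under 0.05, close to the 13% of all tested genes. Without mitochondria replicate 2, 15 were below 0 and the median was -0.08. Fastkd2, which takes part in assembly of the mitochondrial ribosome, had an FPKM of 3.91, 3.47 and 3.47 in control and 3.04, 3.00 and 2.77 in mitochondria libraries, without overlap (fold 0.805, 95% interval 0.70 to 0.925; edgeR adjusted p = 0.261). Ptcd2 had a fold of 0.831 (adjusted p = 0.294) and Fastk of 0.80 (adjusted p = 0.363). With the GC correction 18 of 21 were below 0, with a median of -0.10.

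Of 7 genes of the nucleoid and of matrix proteostasis, 5 were above 0 and 2 below, with a median of 0.02 that was -0.01 to 0.06 with 1 library left out. With the GC correction 3 were above 0 and 4 below, with a median of -0.04. Lonp1, the protease known to degrade free TFAM, had an FPKM of 55.5, 52.9 and 56.5 in control and 63.3, 62.1 and 68.6 in mitochondria libraries. The groups did not overlap, and the fold was 1.17 (95% interval 1.07 to 1.27), with an adjusted p of 0.245 by edgeR and 0.0233 by DESeq2. With the GC correction the log2 fold change of Lonp1 was 0.17 in place of 0.22 (edgeR adjusted p = 0.381). Clpx, of the other matrix protease, had a fold of 0.904 and Shmt2 of 0.95. Among cytochrome c and the nuclear subunits of cytochrome c oxidase, 4 of 11 were above 0 and 7 below, with a median of -0.04 and 0 called. The median turned to 0.02 without control replicate 3, was -0.08 without control replicate 2 or mitochondria replicate 2, and -0.07 without control replicate 1. Cox5b had the smallest p (fold 1.16, 95% interval 1.03 to 1.32; edgeR adjusted p = 0.323), followed by Cox8a (0.927) and Cox6a1 (0.902).

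The output of the machinery, the 13 mRNAs encoded in mtDNA, was below 0 for 13 of 13 (median -0.17 on the log2 scale), against 6437 of 12774 tested genes. By edgeR 0 were called, and 5 had an unadjusted p under 0.05, against 13% of all tested genes. Their summed level was 55885 to 60758 CPM in control and 48736 to 56596 CPM in mitochondria libraries, which overlap. For 4 of the 13 the groups did not overlap in CPM, all 4 lower, against 10.6% of all tested genes. The lowest log2 fold change was -0.30, of mt-Cytb, and the highest -0.03, of mt-Nd6. The FPKM of mt-Cytb was 5096, 5002 and 5431 in control and 4476, 3863 and 4376 in mitochondria libraries, with an adjusted p of 0.247 by edgeR and 0.00759 by DESeq2. With the GC correction 9 of 13 were below 0, with a median of -0.05, and without mitochondria replicate 2 11 were, with a median of -0.09. RNA from the added and from the cells' own mitochondria cannot be told apart in these values.

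**Figure D4:**
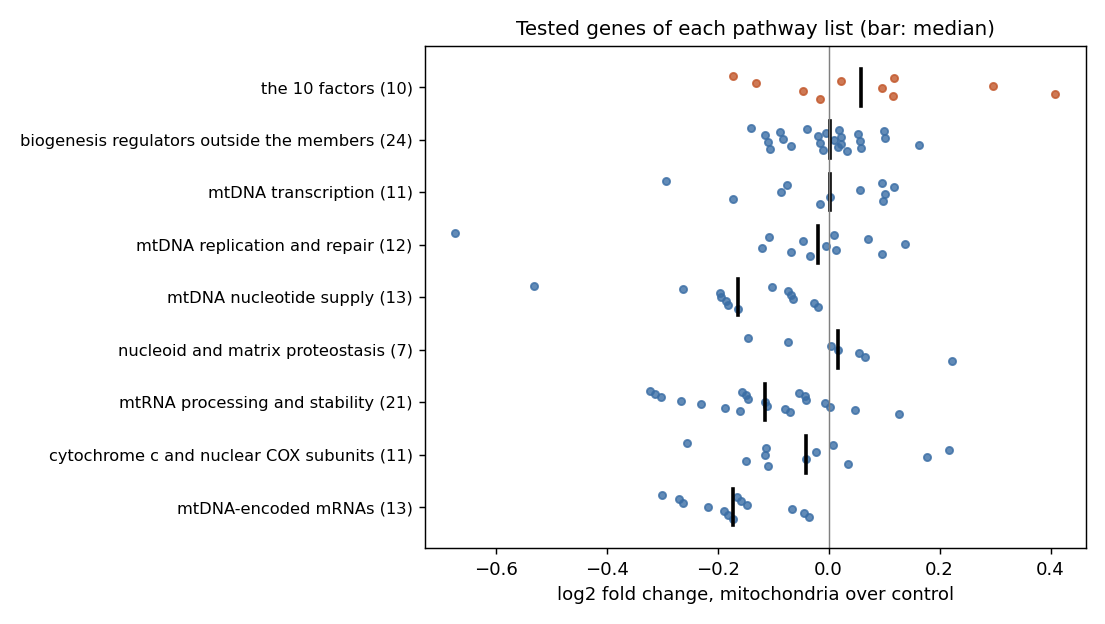
Log2 fold change of mitochondria over control (x axis) for the tested genes of each list, 1 point a gene, with the median as a black bar and the number of tested genes in brackets; regulators other than the 10 factors are labelled as outside the members. The 13 nucleotide supply genes and the 13 mtDNA-encoded mRNAs all lie below 0, while the 10 factors spread from -0.17 to 0.41. Genes of a list share the same libraries and are not independent replicates.

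**Figure D5:**
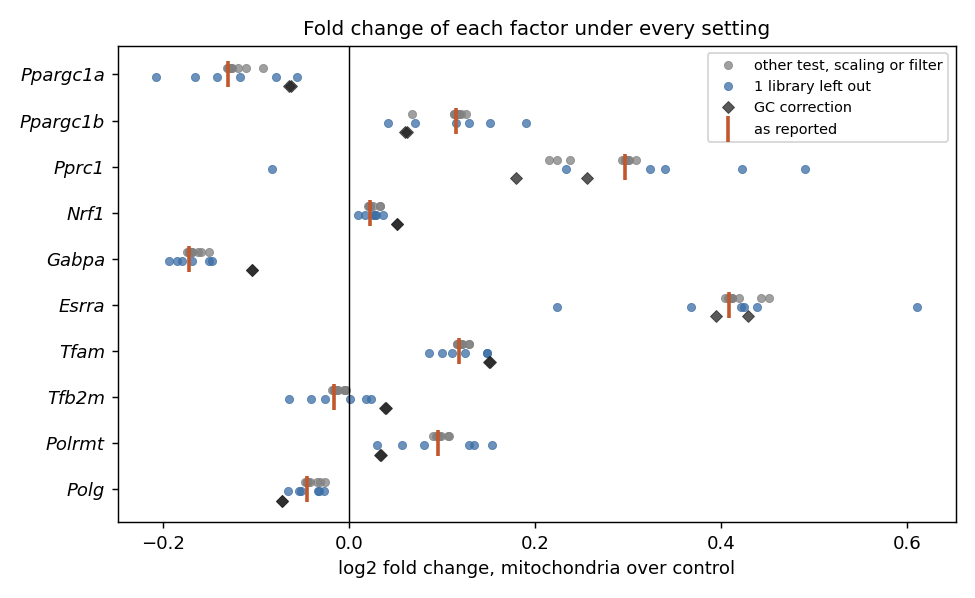
Log2 fold change of each factor (x axis) as reported (orange bar), with 1 library left out (blue), with the GC correction (black diamonds) and under the other tests, scalings and filters (grey). Leaving out 1 library moved Esrra between 0.22 and 0.61 and took Pprc1 to -0.08, and only Tfb2m and Pprc1 changed sign.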

How the data were processed

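The 6 libraries of mRNA were made with a stranded kit, per the labels' protocols. The submitters' processing notes name HISAT2 2.2.1, StringTie 2.1.6, cutadapt 1.9, edgeR, DESeq2 and build GRCm38 with no stated roles. Which annotation release was used, and whether counting used strand, is not given in the sources used here. In the authors' table the estimated counts are whole numbers, and 36.6% of counts from 1 to 20 are multiples of 4, against 25% if evenly spread, so about 4 counts may stand for 1 fragment. Per the file headers, the same table holds deposited FPKM values, in which a gene without counts is entered as 0.0001.

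From there, genes with a mean FPKM of at least 1 (12774) were tested with edgeR 4.0.16 (quasi-likelihood, TMM factors of 0.996 to 1.01, no covariate) in R 4.3.3, with Benjamini-Hochberg adjustment over all of them. Standard errors and 95% intervals come from the F statistic. Alternatives were DESeq2 1.42.0, limma 3.58.1 on log2(FPKM + 1) or log2(FPKM + 0.1), other scalings and filters, counts divided by 4, leaving out each library, and the replicate number as a block. Code was tested on a single simulated data set, where DESeq2 made more false calls than its adjusted p threshold allows. That set was drawn with edgeR's own dispersion estimates and without a replicate or GC trend, so it does not give the error rate in these data. DESeq2 is given as an alternative only. A correction for transcript GC content (longest transcript in GENCODE M21, known for 99.9% of tested genes) was added after seeing the data.

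The 10 genes and all lists were chosen with earlier results of these data known. Named besides the 10 are direct partners and the genes with the smallest p in each list, up to 3.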

Additional observations from a re-analysis of the deposited data

How the results depend on the processing

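In 19 other settings, 179 of 185 fold changes of the 10 factors kept their direction and their side of the threshold, and 6 changed sign without a call. Tfb2m, at -0.02 on the log2 scale, was 0.0399 with the GC correction, 0.0387 with GC correction and replicate block, and -0.0645 to 0.0236 with 1 library left out, above 0 without control replicate 1 or mitochondria replicate 1 or 2. Pprc1, at 0.30, was -0.0827 (without mitochondria replicate 3) to 0.490 with 1 library left out. With the filter at a mean FPKM of at least 5, Ppargc1a, Ppargc1b, Nrf1, Polrmt and Polg were not tested. The 21 genes called over all became 0 with the replicate block, 0 with the GC correction and replicate block, 356 by DESeq2 (203 higher), 8 with that stricter filter and 7 without acinar and hepatocyte genes. Leaving out 1 library gave 1 (without control replicate 1) to 27 genes. DESeq2 called 1 gene each of nucleotide supply, of nucleoid and proteostasis and of mtDNA-encoded mRNAs, where edgeR called 0. The cause of these differences was not tested. Libraries share replicate numbers across groups. The deviations of same-numbered libraries correlated at 0.157, 0.0739 and 0.206, and those of differently numbered libraries at -0.221 to 0.0827. The highest of the latter was mitochondria replicate 2 with control replicate 1. At a larger prior count the values were 0.155, 0.101 and 0.231, against -0.216 to 0.0839. Same-numbered libraries were thus mostly the more alike. The main fit did not assume pairing, and whether the libraries were paired was not tested. The block changed no call among the 10. Depth limits Ppargc1b most. With 3 libraries a group, intervals of Pprc1 and Esrra are wide.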
